A study of Caenorhabditis elegans with 8 samples.

Results

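The genes described here encode the membrane skeleton of Caenorhabditis elegans: the spectrins spc-1, unc-70 and sma-1, the ankyrin unc-44, and the adducins add-1 and add-2. They were taken by name from a table of 46093 genes, of which they are 6, and all of their transcripts were taken from the transcript-level files, 33 of 58105. RNA came from whole day 1 adults of N2, the wild-type laboratory strain, and of a strain labelled atf-6, with 4 libraries each. Worms of both strains were grown at 20 °C on OP50-1 bacteria for 72 h after synchronized larvae were plated, about 1000 worms per culture, and the labels call the 4 cultures independent biological replicates. The labels name no allele for atf-6, whose product is a transcription factor held in the endoplasmic reticulum membrane that takes part in the unfolded protein response. The genes were selected on earlier results from these same libraries, and which measured values served for that is not recorded. Any strain difference below, of a gene or an isoform, may be among them, so each is given as a description with its place in the fit over all genes or transcripts, and supports nothing.

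Spectrin is a long, flexible tetramer of alpha and beta chains that cross-links short actin filaments into a net under the plasma membrane. Ankyrin ties beta spectrin to membrane proteins, and adducin caps actin filaments and helps spectrin bind them. In the worm this net holds axons together under the strain of movement, shapes the epidermis during embryonic elongation, and positions membrane proteins in neurons. Whole-worm RNA mixes all tissues, so fewer cells of a type and less RNA per cell cannot be told apart in any value given here.

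All 6 genes were detected in all 8 libraries, whose depth was 12664222 to 21698298 estimated counts. Summed levels of marker genes for neurons, epidermis, body wall muscle, intestine, germline, pharynx and excretory canal overlapped between the strains, with no marker of these lists at 0 in any library. Sperm markers did not overlap, at 29.3 to 45.9 CPM (counts scaled to TMM-adjusted library size) in the wild type and 66.7 to 106.3 CPM in atf-6, and their part in the results below was not tested. The atf-6 gene itself averaged 12.31 CPM in the wild type and 14.99 CPM in the atf-6 strain, with an adjusted p of 0.346 (edgeR's quasi-likelihood test, Benjamini-Hochberg adjustment), so its total does not check the strain label.

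At the level of whole genes the membrane skeleton did not pass the test between the strains. Of 12375 genes tested, 101 passed an adjusted p of 0.05 (0.816%; edgeR's quasi-likelihood test, Benjamini-Hochberg adjustment), 88 higher in atf-6 (0.711%) and 13 lower (0.105%), and 0 of the 6 were among them. At an unadjusted p below 0.05 the count was again 0 of 6, beside 866 of all genes tested (7.0%). DESeq2 and limma-voom also called 0 of the 6. The CPM ranges of the strains overlapped for each of the 6, whereas 717 genes (5.79%) had ranges that did not. The median log2 fold change, atf-6 minus wild type, was 0.064 over the 6 genes and 0.0019 over all genes tested, and 4 of the 6 values were above 0.

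**Figure D1:**
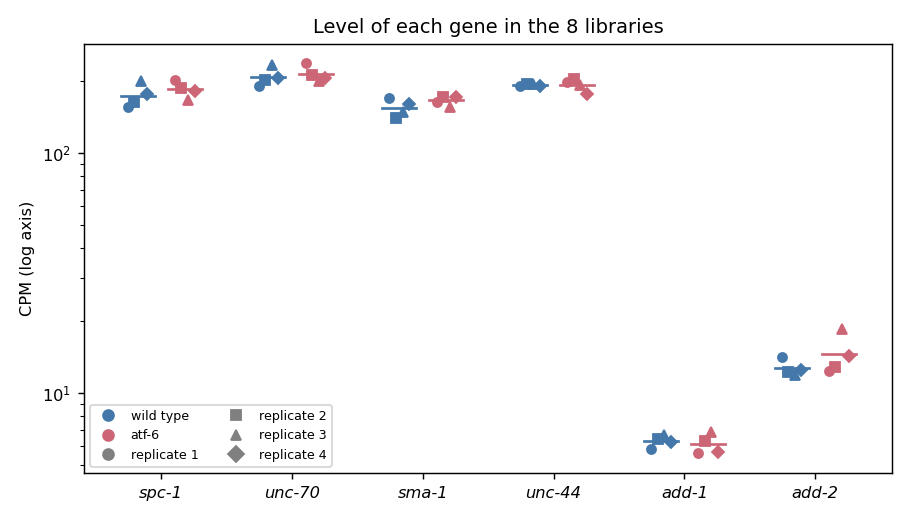
Level of each gene in CPM (log axis) for the 4 wild-type and 4 atf-6 libraries, with a marker shape per replicate number and a bar at each group mean. The strains overlap for every gene, and add-2 in atf-6 replicate 3, at 18.4 CPM, stands above the other libraries of its gene.

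The alpha chain comes first, because C. elegans has a single alpha spectrin gene and each spectrin tetramer needs it. spc-1 (WBGene00004951; WBcel235, chromosome X, 3117439 to 3127079, minus strand) was at 155.0, 162.6, 199.1 and 176.7 CPM in wild-type replicates 1 to 4. In atf-6 replicates 1 to 4 it was at 202.3, 187.1, 167.1 and 181.6 CPM. The lowest library was wild-type replicate 1 and the highest atf-6 replicate 1, with the other libraries of both strains mixed between them. Means were 173.3 ± 19.4 and 184.5 ± 14.5 CPM (SD, n = 4), a 1.06-fold difference with a 95% interval of 0.931 to 1.22 (edgeR's quasi-likelihood test, adjusted p = 0.918 after Benjamini-Hochberg adjustment).

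unc-70 (WBGene00006803; chromosome V, 6881338 to 6891839, plus strand) encodes the conventional beta spectrin, which keeps axons from breaking as the animal bends. It was at 190.1, 201.0, 232.9 and 205.3 CPM in the wild type and at 236.2, 210.7, 199.3 and 206.3 CPM in atf-6. Its lowest and highest libraries were those of spc-1, wild-type replicate 1 and atf-6 replicate 1. The atf-6 mean, 213.1 ± 16.1 CPM, was 1.03-fold that of the wild type, 207.3 ± 18.2 CPM (95% interval 0.912 to 1.16; SD, n = 4; edgeR's quasi-likelihood test, Benjamini-Hochberg adjusted p = 0.949).

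sma-1 (WBGene00004855; chromosome V, 11899449 to 11916623, plus strand) encodes the heavy beta spectrin of the apical epithelial membrane, needed for the embryo to lengthen. Wild-type libraries held 169.5, 140.3, 148.9 and 159.8 CPM, and atf-6 libraries 162.7, 171.7, 156.1 and 171.9 CPM. The 2 lowest values were wild type and the 2 highest atf-6, but wild-type replicate 1 lay above 2 of the atf-6 libraries. The means of 154.6 ± 12.7 and 165.6 ± 7.67 CPM (SD, n = 4) differed 1.07-fold, with a 95% interval of 0.963 to 1.191 and an adjusted p of 0.894 (edgeR's quasi-likelihood test, Benjamini-Hochberg adjustment).

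unc-44 (WBGene00006780; chromosome IV, 5975557 to 6004857, plus strand) encodes the ankyrin that guides axon growth and sorts proteins into axons. It was the steadiest of the 6, at 189.7, 194.0, 193.5 and 191.0 CPM in the wild type and at 197.4, 203.3, 191.3 and 175.6 CPM in atf-6. All wild-type values fell inside the atf-6 range. Means were 192.0 ± 2.06 and 191.9 ± 11.9 CPM (SD, n = 4), a ratio of 0.999 with a 95% interval of 0.914 to 1.09 (edgeR's quasi-likelihood test, Benjamini-Hochberg adjusted p = 0.998). Its biological coefficient of variation, the replicate spread estimated by edgeR, was 0.066, and 5.09% of the genes tested had a lower one.

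In CPM, which is not divided by transcript length, the adducin genes had the lowest levels of the membrane skeleton genes. add-1 (WBGene00000072; chromosome X, 4854065 to 4860045, minus strand), the alpha-type adducin with a known role at synapses in worm memory, was at 5.85, 6.45, 6.69 and 6.27 CPM in the wild type. In atf-6 it was at 5.59, 6.29, 6.84 and 5.66 CPM, a range that holds all the wild-type values. Means were 6.31 ± 0.356 and 6.10 ± 0.589 CPM (SD, n = 4), a ratio of 0.967 with a 95% interval of 0.817 to 1.15 (edgeR's quasi-likelihood test, Benjamini-Hochberg adjusted p = 0.958). These levels rest on 76 to 143 estimated counts per library.

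add-2 (WBGene00000073; chromosome V, 12009540 to 12013406, minus strand), the other adducin gene, lies 92917 nt beyond the end of sma-1. Its levels were 14.1, 12.2, 11.9 and 12.5 CPM in the wild type and at 12.3, 12.8, 18.4 and 14.3 CPM in atf-6. A single library, atf-6 replicate 3, stood above the other 7, which ran from 11.9 to 14.3 CPM. The means of 12.7 ± 0.991 and 14.5 ± 2.77 CPM (SD, n = 4) gave a log2 fold change of 0.20 with an SE of 0.13, or 1.15-fold with a 95% interval of 0.938 to 1.40 (edgeR's quasi-likelihood test, Benjamini-Hochberg adjusted p = 0.877). Without atf-6 replicate 3 the log2 fold change was 0.057. The antisense RNA gene anr-15 (chromosome V, 12011977 to 12012218) lies inside add-2 on the opposite strand and had 3 to 7 counts in 7 libraries and 21 in atf-6 replicate 3, the library in which add-2 was also highest. In that library anr-15 was at 1.005 CPM and add-2 at 18.4 CPM. The libraries were stranded, but the strand setting of the quantifier is not stated in the labels or headers. Reads from this pair may therefore not have been told apart, and the part of anr-15 in the add-2 values was not tested.

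**Figure D2:**
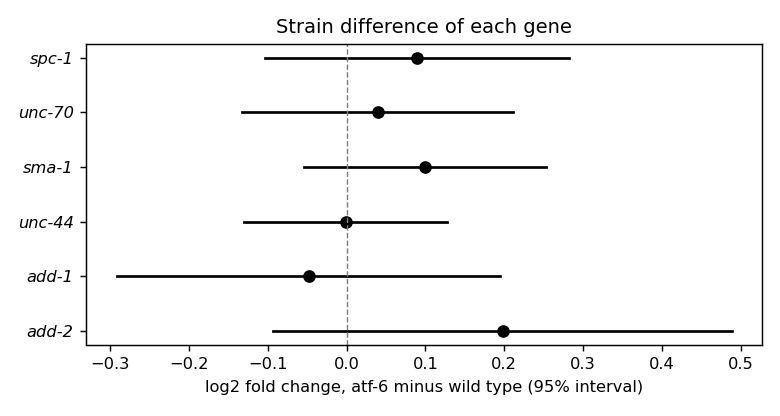
Log2 fold change of each gene, atf-6 minus wild type (points), with its 95% interval (lines), from 4 libraries per strain. All 6 intervals include 0, and the widest are those of add-1 and add-2.

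Levels of different genes were compared as TPM, the abundance unit that divides reads by effective length. unc-44 led with means of 33.8 TPM in the wild type and 34.2 TPM in atf-6, and its mean over all libraries was above that of 76.6% of the genes tested. Over the 8 libraries it was followed by unc-70 at 12.95 TPM, spc-1 at 10.8 TPM, sma-1 at 6.25 TPM, add-2 at 5.99 TPM and add-1 at 1.38 TPM, the last above 18.6% of the genes tested. The ranges of unc-70 and spc-1 overlapped across libraries, as did those of sma-1 and add-2, while the other neighbours in this order were separate. These ranges also carry the differences in TPM scale between libraries. Within single libraries unc-70 was above spc-1 in 8 of 8, and sma-1 above add-2 in 7 of 8.

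Ratios to the alpha chain do not depend on the TPM scale of a library, of which transcripts under 200 nt took 245600 to 371200 TPM. The TPM of unc-70 was 1.20 ± 0.040 times that of spc-1 (SD, n = 8), from 1.15 to 1.26. The TPM of sma-1 was 0.578 ± 0.066 times that of spc-1, from 0.479 to 0.701. Both beta chains together came to 1.78 ± 0.086 times the alpha chain, between 1.68 and 1.96 in all libraries, so per length the RNA of beta spectrins exceeded that of alpha spectrin throughout. The ratio of unc-70 to spc-1 varied less between libraries, relative to its mean, than the ratio of sma-1 to spc-1. add-2 was 4.29 ± 0.644 times add-1, from 3.49 to 5.28. The strains overlapped for each of these ratios.

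In the membrane skeleton the largest estimated difference between the strains lay below the gene level, in the isoforms of add-2. An isoform here is a separate transcript of the gene. This difference may be among the results on which the genes were selected, and it rests on how reads were divided between isoforms. The authors' files list 3 of them: F57F5.4a.1 of 1990 nt, F57F5.4a.2 of 2032 nt and the short F57F5.4b of 1052 nt. The long pair differ by 42 nt in length. F57F5.4a.2 has no entry in the Ensembl annotation used here, so the bases that set it apart were not located. Whether the long forms encode different proteins was not examined. Reads that both long forms could have produced were divided between them by the authors' quantifier.

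F57F5.4a.2 was estimated at 89.1, 96.0, 96.8 and 180.5 reads in wild-type replicates 1 to 4, or 6.71, 4.53, 6.27 and 8.35 CPM. In all 4 atf-6 libraries it was at 0 reads after rounding, the largest estimate being 0.000143 reads. The strains did not overlap, and every wild-type library held the transcript. Summed over libraries, the wild type had it at 6.34 CPM of the pooled reads, and 3 reads over the atf-6 group, about the 95% upper limit for a count of 0, would be 0.0434 CPM. Against that limit the level in atf-6 was at least 146-fold lower. The limit covers counting error only, and not the division of shared reads that gave the 0. In the fit over all transcripts it passed the threshold with an adjusted p of 0.0244 (edgeR's quasi-likelihood test, Benjamini-Hochberg adjustment), one of 10 among 17800 transcripts tested (0.0562%) and one of 4 that were lower in atf-6 (0.0225%). It passed the filter on low counts through the wild-type libraries alone, so it could only be called lower. The call was lost when any 1 of the wild-type libraries was left out, with adjusted p values of 0.0953 to 0.175 (the same test).

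F57F5.4a.1 had the opposite layout. It was at 3.90, 4.26, 0.635 and 0.173 CPM in the wild type and at 7.08, 7.87, 16.1 and 11.1 CPM in atf-6. The strains again did not overlap, but the wild-type libraries themselves split into replicates 1 and 2, with 51.8 and 90.3 reads, and replicates 3 and 4, with 9.79 and 3.75 reads. Its unadjusted p was 0.0364 and it did not pass after adjustment over all transcripts (edgeR's quasi-likelihood test).

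The long forms together did not separate the strains. F57F5.4a.1 plus F57F5.4a.2 came to 10.6, 8.80, 6.91 and 8.52 CPM in the wild type and to 7.08, 7.87, 16.1 and 11.1 CPM in atf-6, with overlapping ranges. Their joint share of add-2 reads was 70.3 ± 4.16% in the wild type and 71.2 ± 7.82% in atf-6 (SD, n = 4). Within that joint share F57F5.4a.2 took 63.2, 51.5, 90.8 and 98.0% in the wild type and 0% in each atf-6 library. The short form F57F5.4b was at 3.82, 3.27, 3.82 and 3.61 CPM in the wild type and at 4.08, 4.07, 4.04 and 3.599 CPM in atf-6. Its ranges overlapped, with a log2 fold change of 0.13 and an SE of 0.14.

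A test of isoform usage asks whether the transcripts of a gene change relative to each other. add-2 had the second smallest p of 3245 genes tested and was one of 8 past the threshold (0.247%), with an adjusted p of 0.000115 (edgeR's F-test of differential splicing, Benjamini-Hochberg adjustment). With a Simes test in place of the F-test 7 genes passed (0.216%), add-2 again among them at an adjusted p of 0.000275 (edgeR, Benjamini-Hochberg adjustment). Leaving out any 1 library kept add-2 past the threshold, with adjusted p values of 0.000107 to 0.00295. In both tests the call rests on F57F5.4a.2, the transcript that passed the filter through the wild type alone, and neither of the other isoforms of add-2 passed. The other 5 genes did not pass in either test. On simulated data the F-test called more unchanged genes than its threshold allows, whereas the Simes test did not. The simulated counts had the same spread for every transcript and no division of reads between isoforms. They therefore do not show the error rate of either test where isoforms share reads. The uncertainty of dividing shared reads between near-identical isoforms is in neither test.

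The same pattern was counted over all 58105 transcripts, and 5 (0.00861%) had 0 reads in all atf-6 libraries and at least 10 reads in each wild-type library: F57F5.4a.2 of add-2, F28C6.4b.2 of pigg-1, F56D5.6b, C53C7.5b and R13F6.6b of zak-1. The reverse, at 0 in the wild type, held for 1 transcript, T23F1.7b of dpf-1 (0.00172%). These transcripts were named after their values were seen. Among the 33 membrane skeleton transcripts, F57F5.4a.2 alone had this pattern. F39C12.2e of add-1 was also at 0 in all atf-6 libraries, but had reads in a single wild-type library.

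**Figure D3:**
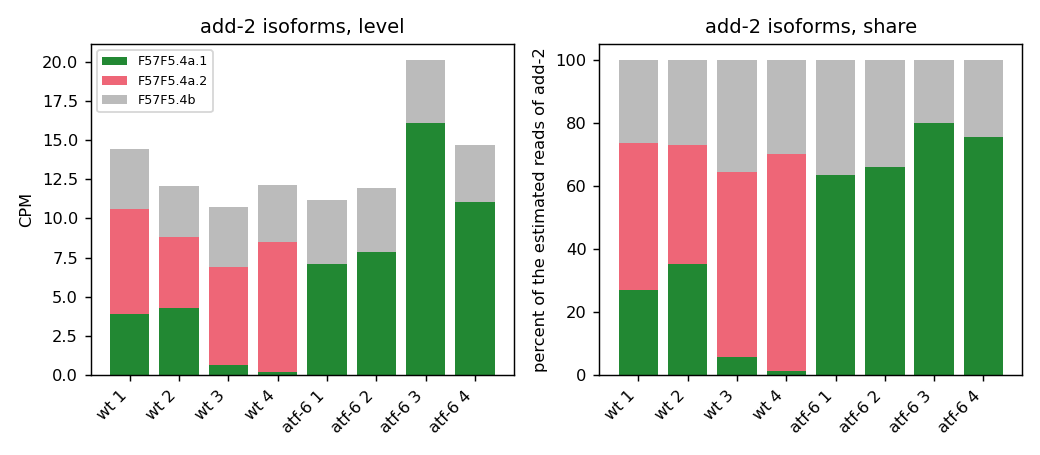
Stacked bars of the 3 add-2 isoforms in each library, as CPM (left) and as percent of the estimated reads of add-2 (right). F57F5.4a.2 takes 37.6 to 68.8% of reads in the wild type and none in atf-6, where F57F5.4a.1 takes 63.4 to 79.9%, while the height of the long forms together overlaps between strains.

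Of the 33 transcripts, 25 passed the filter on low counts, 14 were at 0 in at least 1 library and 2, both of unc-44, were at 0 in all 8. Among those tested, 3 had an unadjusted p below 0.05, beside 758 of 17800 transcripts (4.26%). In 3 of those tested the CPM ranges of the strains did not overlap, beside 715 of all transcripts (4.02%): the long add-2 forms and R31.1c of sma-1. In the Ensembl annotation used here 26 of the 33 have an entry, and B0350.2g.1 and B0350.2f.2 of unc-44 do not. Listed lengths can also differ from that annotation, by -836 nt for K11C4.3d and 713 nt for R31.1c (listed minus annotated). The genes below are taken in the same order as above.

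spc-1 was read mainly as K10B3.10a, which held 92.0% of the gene's TPM on average and 81.7 to 97.2% in single libraries. It was at 125.0, 159.2, 185.3 and 161.4 CPM in the wild type and at 190.7, 182.9, 147.7 and 175.5 CPM in atf-6. The ranges overlapped, with wild-type replicate 1 lowest. K10B3.10b, which is 15 nt longer, had the rest.

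unc-70 had no leading isoform. K11C4.3d, K11C4.3b and K11C4.3c held 31.8, 30.2 and 29.6% of its TPM and K11C4.3a 8.46%. K11C4.3c was at 59.6, 55.8, 62.3 and 51.5 CPM in the wild type and at 74.8, 70.6, 78.5 and 61.2 CPM in atf-6. The lowest atf-6 library fell between the wild-type values and the other 3 lay above them. Its log2 fold change was 0.32 with an SE of 0.096 and an unadjusted p of 0.0117, and the adjusted p was 0.774 (edgeR's quasi-likelihood test, Benjamini-Hochberg adjustment). K11C4.3d ran from 51.8 to 92.6 CPM and K11C4.3b from 48.0 to 89.3 CPM over the 8 libraries, with overlapping strains. K11C4.3a ranged from 0.333 to 43.4 CPM within the atf-6 group alone.

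sma-1 was read mainly as R31.1d, at 154.4, 133.7, 141.3 and 156.6 CPM in the wild type and at 146.7, 151.6, 139.3 and 155.1 CPM in atf-6. These levels overlapped. Its estimated share of the gene's reads was 91.6 to 97.4% in the wild type and 87.7 to 90.5% in atf-6. R31.1c is listed at 12656 nt beside 12573 nt for R31.1d, and reads that both could have produced were divided by the authors' quantifier. R31.1c was estimated at 10.1, 0.042, 2.32 and 4.19 CPM in the wild type and at 12.3, 20.6, 10.3 and 16.5 CPM in atf-6. Its lowest atf-6 library and its highest wild-type library were 10.3 and 10.1 CPM, so the ranges only just failed to meet. None of R31.1d, R31.1c and the isoform usage of sma-1 passed its test over all transcripts or genes. How often read shares separate the strains in other transcripts was not counted, so the share ranges of R31.1d are a description only. R31.1a and R31.1b held 0.954% and 1.02% of the gene's TPM on average.

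unc-44 has the widest range of transcript lengths, 1200 to 21845 nt over 15 listed transcripts. The giant forms B0350.2f.1 and B0350.2f.2 belong to the class of long axonal ankyrins. Together they held 25.6% of the gene's reads but 3.24% of its TPM, because each molecule yields many reads. They were at 44.1, 48.7, 54.1 and 47.3 CPM in the wild type and at 50.5, 53.2, 45.3 and 54.4 CPM in atf-6. The strains overlapped, and their share of reads stayed between 24.8 and 28.0% in all libraries.

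Per length the shortest listed form, B0350.2a of 1200 nt, led with 54.8% of unc-44 TPM and 20.4% of its reads. It was at 38.7, 40.5, 41.0 and 41.7 CPM in the wild type and at 39.6, 41.6, 38.4 and 34.5 CPM in atf-6. B0350.2d held 15.3% of TPM, at 24.6 to 31.5 CPM in the wild type and 23.5 to 30.7 CPM in atf-6. B0350.2g.1 held 10.7%, at 14.7 to 27.4 and 19.01 to 30.2 CPM. All 3 overlapped between strains. Together these 3 forms held 80.8% of unc-44 TPM and 46.7% of its reads, with overlapping strains. The unc-44 locus also overlaps 12 annotated genes on its own strand and 19 on the other. All are piRNA or ncRNA genes, with 0 counts in every library except for B0350.76, which reached 1.

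**Figure D4:**
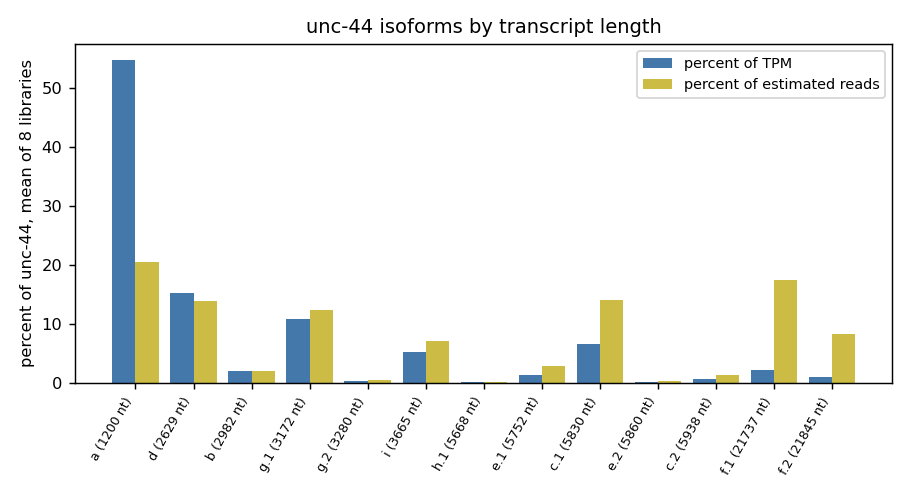
The 13 unc-44 transcripts with reads, ordered by length in nt, as percent of the gene's TPM and percent of its estimated reads (means of 8 libraries). The 1200 nt form B0350.2a has 54.8% of TPM and 20.4% of reads, whereas the giant forms at the right have a larger share of reads than of TPM.

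add-1 was read mainly as F39C12.2b, which held 69.6% of its TPM, from 54.8 to 87.4%. It was at 4.09, 5.77, 5.75 and 4.38 CPM in the wild type and at 4.66, 3.56, 3.79 and 3.35 CPM in atf-6. One atf-6 library lay among the wild-type values and the other 3 below them, with a log2 fold change of -0.38, an SE of 0.19 and an unadjusted p of 0.0851 (edgeR's quasi-likelihood test). F39C12.2d held 14.4% on average but was at 0 in wild-type replicates 3 and 4 and atf-6 replicate 1. The remaining 3 isoforms each had reads in at most 3 libraries.

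spc-1 and unc-70 had similar profiles across libraries, and sma-1 did not share them. After each gene's mean log2 CPM was subtracted, the root mean square difference over the 8 libraries between spc-1 and unc-70 was 0.045, against a median of 0.21 between spc-1 and all genes tested. Only 10 of the genes tested lay nearer to spc-1 than unc-70 did, and 42 lay nearer to unc-70 than spc-1 did. sma-1 was farther off, at 0.15 from both, with 3928 genes nearer to spc-1. spc-1 and unc-70 were highest in wild-type replicate 3, by 0.16 and 0.15 on the log2 scale, and in atf-6 replicate 1, by 0.18 and 0.17. The same libraries had the highest summed markers of body wall muscle (5395 and 5298 CPM), epidermis (2298 and 2323 CPM) and neurons (383.6 and 438.6 CPM), and also of intestine (2720 and 2428 CPM) and pharynx (236.8 and 246.2 CPM). Germline markers were highest of each strain in these libraries (6155 and 5787 CPM). Sperm markers were highest in atf-6 replicate 1 (106.3 CPM) but not in wild-type replicate 3 (44.6 CPM). Excretory canal markers went the other way. They were lowest of the 8 libraries in wild-type replicate 3 (168.8 CPM) and lowest of the atf-6 group in atf-6 replicate 1 (200.7 CPM). A surrogate variable, an estimate of hidden variation between libraries over all genes, was lowest in wild-type replicate 3 (-0.584) and atf-6 replicate 1 (-0.407). The part of these tissues, or of that variation, in the shared pattern was not tested.

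**Figure D5:**
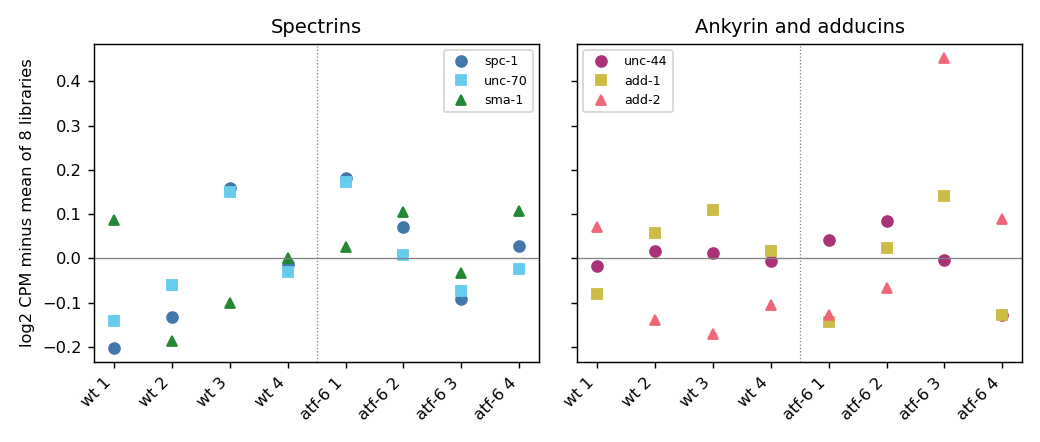
Log2 CPM of each gene minus its mean over the 8 libraries, for the spectrins (left) and for the ankyrin and adducins (right), with a dotted line between strains. spc-1 and unc-70 lie on the same side in most libraries and close to each other, sma-1 departs from them, and add-2 reaches 0.45 in atf-6 replicate 3.

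By the same measure the nearest genes outside the set were F54A3.2 (0.033) and twf-2 (0.033) for spc-1, and T12D8.9 (0.019) and Y17G7B.20 (0.031) for unc-70. For sma-1 they were drr-1 (0.040) and ttm-1 (0.044), and for unc-44 cpt-2 (0.030) and Y116A8C.27 (0.031). For add-1 they were T13F2.2 (0.050) and C05D2.8 (0.051), and for add-2 F49C12.12 (0.044) and R05H11.1 (0.046). All these differences are on the log2 scale over 8 libraries.

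Genes that work beside the membrane skeleton were read from the same fit in 6 lists. In these lists 0 genes passed in either direction, beside 101 of all 12375 genes tested (0.816%; edgeR's quasi-likelihood test, Benjamini-Hochberg adjustment). At that share most lists of this size would hold none. The 11 tested FERM domain genes, which link actin to membrane proteins, had a median log2 fold change of 0.076. frm-7 was at 0.089 and frm-5.2 at 0.39 on that scale. The 16 tested genes of actin and its filament ends had a median of -0.0016, with act-3, an actin, at 0.17 and unc-78, an actin-disassembly factor, at 0.10. The 8 spectrin-repeat relatives had a median of 0.038, with the alpha-actinin atn-1 at 0.090 and the spectraplakin vab-10 at 0.13.

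Of the 9 ankyrin partners at the membrane and axon, with a median of 0.0019, 1 had an unadjusted p below 0.05, a level that 7.0% of all genes tested reached. This was unc-33, an axonal protein that acts with UNC-44, at 53.3 ± 4.49 CPM in the wild type and 47.3 ± 2.62 CPM in atf-6 (SD, n = 4), a log2 fold change of -0.17 with an adjusted p of 0.685 (edgeR's quasi-likelihood test, Benjamini-Hochberg adjustment). unc-119, also in that list, was at 0.12. Of the 15 genes of epidermal elongation and adherens junctions, with a median of 0.0012, 2 had an unadjusted p below 0.05. They were let-413, a basolateral polarity protein, at 0.20 with an adjusted p of 0.472, and the non-muscle myosin nmy-1 at 0.13 with an adjusted p of 0.644 (the same test). The 12 signalling genes tied to spectrin had a median of 0.015, led by egl-44 at 0.11 and yap-1 at 0.096, which act in the Hippo pathway.

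Transcript length was set beside these values. spc-1, unc-70 and sma-1 are each longer than at least 98.96% of the genes tested, and the 185 tested genes with an effective length of at least 5000 nt had a median log2 fold change of 0.042, beside 0.0012 for the 12116 shorter genes. The log2 fold changes of spc-1, unc-70 and sma-1 were 0.089, 0.039 and 0.099. unc-44, add-1 and add-2 are longer than 91.73, 86.06 and 57.85% of the genes tested, by effective length. Their log2 fold changes were -0.0012, -0.048 and 0.20, so the shortest member, add-2, had the highest value. The part of transcript length in any of these values was not tested.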

How the data were processed

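Poly(A) RNA was sequenced over 75 cycles from stranded libraries, per the labels' protocols. Tools listed in the submitters' processing notes, without roles, are DESeq2 1.19.51, Salmon 0.9.1 and STAR 2.5.3a, on build WBcel235. The gene table deposited by the authors holds estimated counts in whole numbers, which lay near length-scaled TPM (median absolute log2 difference 0.00864 to 0.00899 per library). Per the file headers, the transcript files hold estimated counts (reads), TPM and effective length. Depth was 12664222 to 21698298, and all library pairs differed by more than sampling noise (chi-square over degrees of freedom at least 3.72).

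The gene counts went into edgeR 4.0.16 (R 4.3.3) after filterByExpr and TMM scaling. Strain was the only factor of the robust quasi-likelihood fit, tests were two-sided, and p-values were adjusted by Benjamini-Hochberg with 0.05 as the threshold. Transcript reads, rounded to whole numbers, were fitted the same way, followed by a test of isoform usage. The SE of a fold change was taken from its size and the F statistic. CPM uses TMM-adjusted library sizes. TPM was used to compare genes, within single libraries and as means and ranges over libraries, and was not used to test the strains. Symbols came from a gene name table (43540 identifiers) and positions from the Ensembl annotation of WBcel235. The fits were tested on simulated data with known changes, on which the F-test of isoform usage called too many unchanged genes. The Simes test was added for that reason.

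The members and the lists were chosen with earlier results of these data known. Named were the 6 genes, every transcript with at least 10% of its gene's TPM or a call, the 2 nearest genes per member, and up to 4 called genes of each list or otherwise the 2 with the smallest p. K10B3.10b, K11C4.3a, R31.1c and the long unc-44 forms were named after their values were seen. Alternatives were RLE and upper-quartile scaling, other filters, DESeq2 1.42.0, limma-voom (limma 3.58.1), a replicate block, plain sums of reads, 1 surrogate variable (sva 3.50.0), a threshold of 0.01 and leaving out libraries. No sequence is printed, since none was used here.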

Additional observations from a re-analysis of the deposited data

Results flagged for a closer look

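Of 50 groups of 4 values examined over the 6 genes and their transcripts, 1 held a library far from the rest. The short add-2 isoform F57F5.4b was at 3.6 CPM in atf-6 replicate 4, while the other 3 atf-6 libraries were at 4.04 to 4.08 CPM, and the gap was 0.906 of the whole range. Chance flags about 1 in 20 groups.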

How the results depend on the processing

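0 of the 6 genes passed the threshold in any alternative run. The log2 fold changes of spc-1, sma-1, add-1 and add-2 kept their direction in every one. That of unc-44 turned above 0 with upper-quartile scaling (0.025), plain sums of reads (0.0089), 1 surrogate variable (0.00706) and without both replicates 3 (0.0036), and ran from -0.032 to 0.039 when 1 library was left out. That of unc-70 then ran from -0.012 to 0.099.

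The 101 genes past the threshold became 187 with DESeq2, 39 with plain sums, 330 with 1 surrogate variable and 15 at an adjusted p of 0.01, and 16 to 107 when 1 library was left out. With the surrogate variable frm-5.2, vab-10 and nmy-1 passed, 1 in each of their lists (FERM, spectrin-repeat and elongation). The 10 transcripts became 6 with no filter on low counts and 5 to 7 when 1 library was left out. The 8 genes with changed isoform usage became 13 with no filter and 6 to 22. The share of F57F5.4a.2, atf-6 minus wild type, was -42.6 percentage points of TPM and -52.8 points of reads. When 1 library was left out, log2 fold changes of transcripts that did not pass the test crossed 0: B0350.2c.1 (-0.74 to 0.13), B0350.2c.2 (-0.57 to 0.26), B0350.2f.1 (-0.049 to 0.23), B0350.2f.2 (-0.093 to 0.23), B0350.2g.1 (-0.0033 to 0.27), B0350.2g.2 (-1.27 to 0.64), B0350.2i (-0.86 to 0.40), F39C12.2d (-0.24 to 1.97), K11C4.3b (-0.22 to 0.091), K11C4.3d (-0.19 to 0.11) and R31.1d (-0.021 to 0.049).

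Same-numbered libraries did not deviate together (correlations of -0.385, -0.0446, -0.407 and 0.043). Whether they shared a batch was not tested. With the number as a replicate block, 4 genes, 0 transcripts and 1 gene for isoform usage passed, add-2 usage had an adjusted p of 0.104, and K11C4.3d (-0.019), B0350.2g.2 (-0.71) and B0350.2i (-0.72) turned below 0. The cause was not tested for any of these. The planned offset for effective length on the deposited table was not run, since that table carries a length rescaling. Plain sums with that offset, added after seeing the data, replaced it, and the Simes test was added then too. Depth limits add-1 and the rarer isoforms, and no estimate carries the uncertainty of dividing shared reads.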
